A study of Gasterosteus aculeatus with 227 samples.

Results

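The gene asns encodes asparagine synthetase and was measured as 1 of 25994 genes counted in brain, gills and liver of the threespine stickleback, Gasterosteus aculeatus. It was chosen because earlier work on these same counts had found it higher in females in liver and higher in males in gills. Its sex differences in liver and gills are therefore given as descriptions with no test, and only its behaviour in brain, its relations to other measurements and the behaviour of other genes are tested. The fish were 80 untreated adults of both sexes caught from 1 natural population in the reproductive period, and every group was wild fish of that population, differing only by labelled sex and organ. The 227 libraries comprised 39 female and 39 male brains, 36 female and 36 male gill samples, and 38 female and 39 male livers, with 69 fish represented in all 3 tissues. The labels give no age.

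Asparagine synthetase makes asparagine from aspartate, taking the amide nitrogen from glutamine and spending ATP. In mammals the gene is a textbook target of the integrated stress response: when amino acids run short or unfolded protein accumulates in the endoplasmic reticulum, the kinases GCN2 and PERK phosphorylate the initiation factor eIF2, translation of the transcription factor ATF4 rises, and ATF4 activates genes for amino acid synthesis, amino acid import and tRNA charging. The liver of an egg-laying female fish also exports large amounts of yolk precursor, vitellogenin, to the ovary.

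The libraries were made from total RNA with a kit that reads the 3' end of polyadenylated transcripts, so 1 count stands for about 1 sequenced tag whatever the transcript length, and levels are given as counts per 1000000 counted reads (CPM). Deep libraries, those with at least 1000000 counts, were 77 brains, 72 gill samples and 67 livers, and they held between 4.35 M and 28.1 M counts each (M, 1000000). Another 11 libraries, 10 of them livers, held 8829 to 432259 counts. In all, 19 libraries stood apart from the rest: 13 with less than 0.5 times the median count of their tissue, 4 deep livers whose vitellogenin gene vtg3 went against the labelled sex, and the brain and gills of 1 fish labelled male whose Y chromosome genes summed to 14.2% of the male median in brain and 18.3% in gills. The other deep male brains lay at 67.4% or more of that median, and the other male gill samples at 79.1% or more. The Y chromosome genes summed here were those without a count in any library labelled female. For the 2 of those 4 livers that were labelled female, only vtg3 went against the label. The 19 libraries are kept in the values below unless stated. Defining markers of each organ were present: the summed level of 7 liver markers had a median of 26947 CPM in female and 117688 CPM in male liver, 8 brain markers had medians of 8377 and 7816 CPM in female and male brain, and 7 gill markers had medians of 1381 and 1216 CPM in female and male gills. Markers of other tissues were present too. The liver marker sum had medians of 4845 and 4249 CPM in female and male brain. In female and male gills the sum of 7 muscle markers had medians of 1865 and 2007 CPM. The liver marker sum had medians of 47.1 and 158 CPM there. In gills 1 of 6 tested liver markers and 3 of 8 brain markers were called higher in males, and 0 of either in females. Of 7 muscle markers, 1 was called higher in female gills. Of all genes tested in gills, 7.45% were called higher in males and 6.02% in females. Each sample is a whole-organ extract, in which fewer cells of a type and less RNA per cell cannot be told apart.

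Female liver had the highest level of asns, and female gills the lowest. In female liver asns ranged from 0 to 210 CPM with a median of 47.2 CPM and a mean of 60.1 ± 44.1 CPM (SD, n = 38). Male gills followed at 6.67 to 72.95 CPM, median 16.4 CPM, mean 22.3 ± 15.3 CPM (SD, n = 36). Male gills and the livers of both sexes reached above the highest brain library, and female gills did not exceed it.

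Male brain held 7.92 to 50.7 CPM, median 18.4 CPM, mean 20.4 ± 8.91 CPM (SD, n = 39), and female brain 9.02 to 33.3 CPM, median 18.4 CPM, mean 18.7 ± 5.53 CPM (SD, n = 39). Male liver held 0 to 59.9 CPM, median 12.1 CPM, mean 16.6 ± 14.4 CPM (SD, n = 39). Female gills held 4.03 to 34.8 CPM, median 8.47 CPM, mean 10.7 ± 6.02 CPM (SD, n = 36). In the order of the means, male gills, male brain, female brain and male liver are neighbours that differ by less than their SDs, and their ranges overlap.

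Brain was the most even organ for asns and liver the least. The coefficient of variation was 29.6% in female brain, 43.6% in male brain, 56.2% in female gills, 68.8% in male gills, 73.3% in female liver and 86.8% in male liver. In deep libraries the fewest asns reads were 67 in male brain, 89 in female brain, 48 in male gills and 37 in female gills. They were 7 in male liver and 128 in female liver, so counts were low at the bottom of the male liver range. Zero counts occurred in 4 livers, 3 male and 1 female, which held 8829 to 66156 counts in total, so that 3 counts, the limit a count of 0 allows, would have been 45.3 to 340 CPM there. That limit and the counts cover counting error only.

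**Figure D1:**
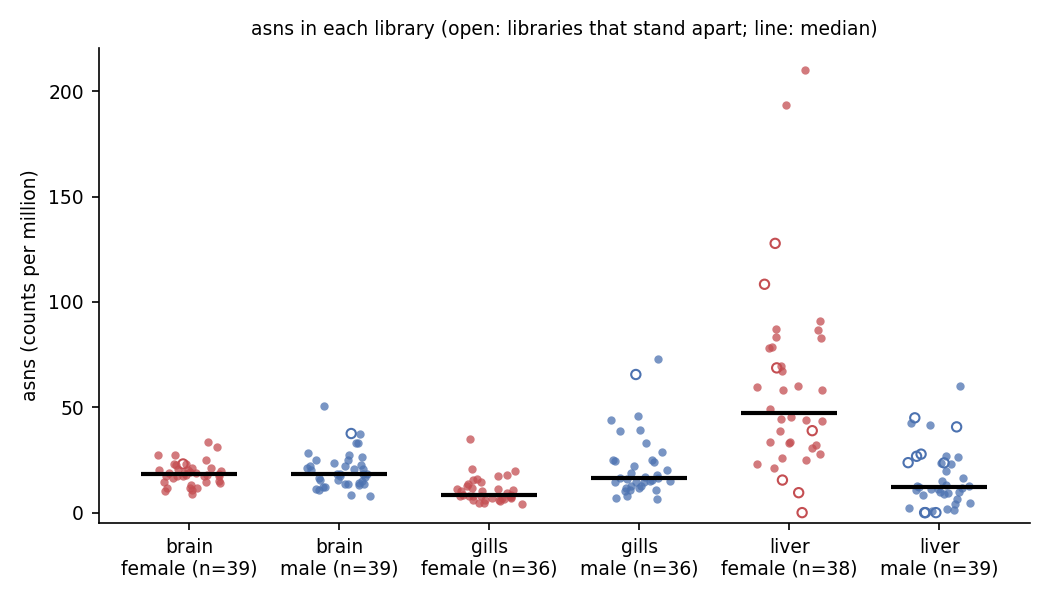
asns in each of the 227 libraries, in CPM, by tissue and sex; each point is 1 library, open points are the 19 libraries that stood apart and the black line is the group median. Female livers spread up to 210 CPM around a median of 47.2 CPM, male gills reach 72.95 CPM against 34.8 CPM in female gills, and the 2 brain groups share a median of 18.4 CPM.

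In gills, the values that helped choose the gene were 33 of 36 males above the female median, with 6 males above every female and 8 females below every male. The fitted level was 2.09-fold higher in males, a log2 difference of female minus male of -1.06 (SE 0.19). The highest female gill sample, at 34.8 CPM, stood well above the next at 20.7 CPM, while the males spread more evenly upward, with 72.95, 65.5, 45.7 and 43.9 CPM as the highest 4.

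Some of the highest male gill values came from fish with a library that went against its labelled sex. The gills of the fish with low Y chromosome genes held 65.5 CPM, rank 2 of the 36 males. The 2 males whose livers carried female-like vtg3 had gill asns of 72.95 CPM, rank 1, and 38.7 CPM, rank 6, and their gills had Y chromosome genes at 92.2% and 101% of the male median. Without every library of the 5 fish with such a library, male gills had a mean of 18.9 ± 9.90 CPM (SD, n = 33), female gills 10.8 ± 6.15 CPM (SD, n = 34), 3 males lay above every female, and the log2 difference was -0.81 (SE 0.17), a 1.76-fold male excess. The part of these fish in the gill values was not tested.

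In liver, the values that helped choose the gene were 34 of 35 deep female libraries above the median of the 32 deep male libraries, with 14 females above every male. The fitted log2 difference was 2.46 (SE 0.31), 5.499-fold higher in females, and 2.66 (SE 0.31) without the libraries that stood apart. This size depends on scaling. The main fits scaled libraries by trimmed mean of M-values (TMM), which takes most genes as unchanged; with plain library totals the liver difference was 1.88 (SE 0.27) while the median of all tested genes moved from -0.04 to -0.48, so that relative to the median gene it was 2.50 under TMM and 2.36 under library totals.

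The male livers at the bottom of the range were deep libraries: male liver replicates 14, 38 and 28 held 7, 12 and 22 asns reads, or 0.568, 1.02 and 1.83 CPM. The female livers at the top were replicate 6 with 1792 reads, 210 CPM, and replicate 32 with 1150 reads, 194 CPM. These 2 females took opposite ends in gills. The fish of liver replicate 6 also had the highest female gill value, 34.8 CPM, and the fish of liver replicate 32 had the lowest, 4.03 CPM.

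In brain, which played no part in the choice, asns did not differ detectably between the sexes. Of 39 females, 20 lay above the male median, no female lay above or below every male, and 3 males lay above and 2 below every female. The fitted log2 difference, female minus male, was -0.16 (SE 0.12, 95% interval -0.41 to 0.08; edgeR quasi-likelihood test, adjusted p = 0.678 over 18346 genes). Across the alternative settings the adjusted p ran from 0.61 to 0.904.

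Within single fish, female gills were generally below female brain. On a scale of log2 CPM set by TMM over all libraries, gills minus brain averaged -0.81 ± 0.66 in females (SD, n = 35 fish), a 1.75-fold lower level, and gills were lower in 30 of 35 fish. In males the average was 0.00 ± 0.97 (SD, n = 35), with gills higher in 14 fish and lower in 21. The difference in the females kept its direction in every setting tried, from -0.70 to -0.88. Since liver and gill levels helped choose the gene, these within-fish differences are descriptions with no test.

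Liver minus brain averaged 3.10 ± 2.10 in females (SD, n = 37), with liver higher in 36 fish, and liver minus gills 3.88 ± 2.01 (SD, n = 36), with liver higher in 35. With library totals as the scale these were 1.24 and 2.11. In males the direction depended on the scale: liver minus brain was 0.19 ± 2.40 (SD, n = 38) and liver minus gills 0.42 ± 2.13 (SD, n = 35) with TMM, against -1.12 and -0.95 with library totals. Without the libraries that stood apart the male values with TMM were 0.75 ± 1.60 (SD, n = 30) and 0.79 ± 1.71 (SD, n = 27). Since the direction turned with the scale, no order of male liver against the other male organs can be read.

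Between organs of the same fish, 1 of 6 pairings passed the test. Of the 6 pairings of organs within a sex, over 29 to 35 fish with deep libraries, the pairing of gills and brain in females had a Pearson r of 0.41 (permutation p = 0.015, adjusted p = 0.0899) and a Spearman rho of 0.46 (permutation p = 0.00686, adjusted p = 0.0412), both adjusted over the 6 pairings by the Benjamini-Hochberg method (n = 34). Without the 2 fish farthest from the median r was 0.46. With library totals, rho was 0.39 and its adjusted p was 0.133, so the call rests on the scaling. In the other 5 pairings rho lay between -0.09 and 0.11 with adjusted p-values of 0.908 to 0.943.

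**Figure D2:**
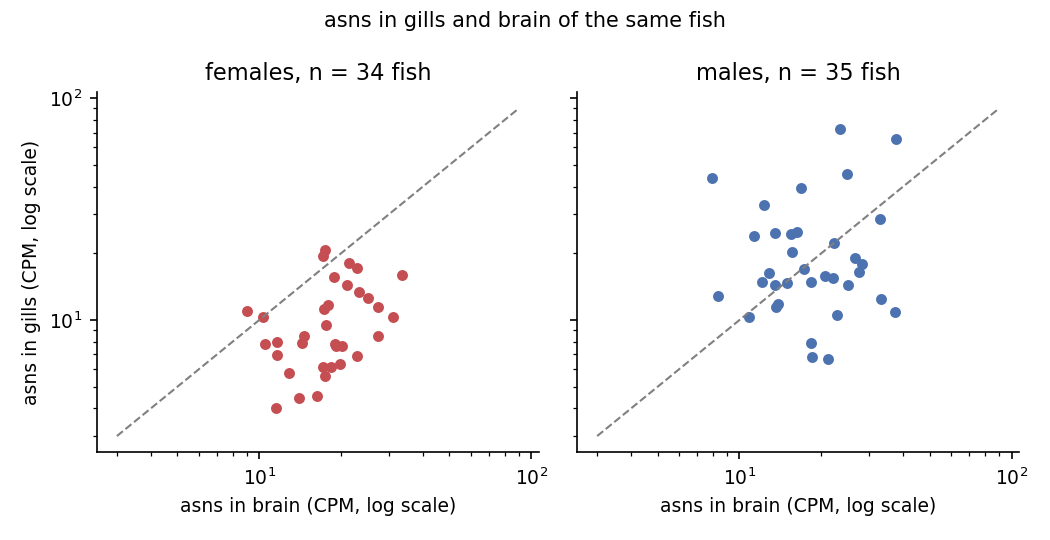
asns in gills against brain of the same fish, in CPM on log axes, for the fish with at least 1000000 counts in both; each point is 1 fish and the dashed line marks equal levels. Of the 34 females 30 lie below the line, while males lie on both sides, with gills higher in 16 and lower in 19 on this CPM scale.

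Among female livers asns was higher where vtg3 was higher. The gene vtg3 encodes a vitellogenin, the yolk precursor that the liver secretes, and it is the 1 gene of the 8 in the yolk list that was found in the counts. Over the 31 female livers that did not stand apart, vtg3 ran from 167 to 15324 CPM, and the second lowest value was 4526 CPM. Across them Pearson r on the log2 scale was 0.60 (permutation p = 8e-05, adjusted p = 0.00448) and Spearman rho was 0.73 (permutation p = 2e-05, adjusted p = 0.00112), with adjustment over 56 relations of asns with vtg3, depth and marker sums. Without the 2 livers farthest from the median of vtg3, r was 0.64. The relation was weaker with library totals. Over all 35 deep female livers rho was then 0.56 (permutation test, adjusted p = 0.0392), against 0.73 with TMM. Without the 2 farthest of these 35 livers r was 0.41, against 0.59 with TMM.

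The 2 deep female livers with vtg3 at 15.2 and 40.4 CPM had the lowest asns of the 35 deep female livers, 9.46 and 15.5 CPM, where the other 33 ranged from 21.4 to 210 CPM. The 2 deep male livers with vtg3 at 5395 and 11575 CPM had 23.6 and 26.7 CPM of asns, inside the range of the other 30 deep males, 0.568 to 59.9 CPM, and above their median of 11.3 CPM. Y chromosome genes in those male livers stood at 37.2% and 20.6% of the male median. The 2 female livers had no counts of these genes. Within males no relation was detected: over the 32 deep livers r was 0.26 (permutation p = 0.14, adjusted p = 0.413) and rho 0.21 (permutation p = 0.237, adjusted p = 0.588), and over the 30 that did not stand apart r was -0.11 (permutation p = 0.55, adjusted p = 0.758) and rho 0.06 (permutation p = 0.738, adjusted p = 0.875). Whether the relation differed between the sexes was not tested.

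**Figure D3:**
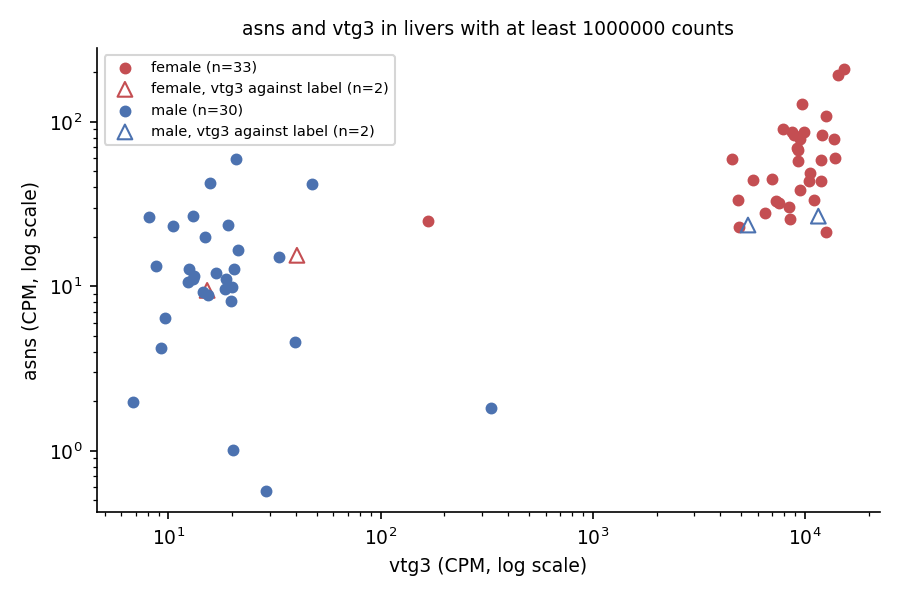
asns against vtg3 in the 67 livers with at least 1000000 counts, both in CPM on log axes; points are livers, and open triangles are the 2 female and 2 male livers whose vtg3 went against the labelled sex. The 2 female triangles, at 9.46 and 15.5 CPM of asns, lie among the males, and both male triangles, at 23.6 and 26.7 CPM, lie at the low edge of the female cloud.

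The liver marker sum had a negative relation with asns over the deep female livers. In the 35 deep female livers the sum of 7 liver markers had r = -0.58 with asns (permutation p = 0.00028, adjusted p = 0.00784) and rho = -0.50 (permutation p = 0.00251, adjusted p = 0.0703), and r = -0.48 without the 2 farthest livers. Over the 31 livers that did not stand apart the call was lost, at r = -0.37 (permutation p = 0.0431, adjusted p = 0.241) and rho = -0.33 (permutation p = 0.0663, adjusted p = 0.399). There the sum of 7 muscle markers had r = 0.56 (permutation p = 0.00087, adjusted p = 0.0244) and rho = 0.53 (permutation p = 0.00208, adjusted p = 0.0582), with r = 0.44 without the 2 farthest, against r = 0.43 (permutation p = 0.0104, adjusted p = 0.0973) and rho = 0.44 (permutation p = 0.00821, adjusted p = 0.153) over all 35. With library totals over all 35 the muscle sum had r = 0.20 (permutation test, adjusted p = 0.55) and rho = 0.23 (adjusted p = 0.479). Its level in deep female livers was low, at 1.65 to 18.3 CPM. The liver markers, including the transport proteins fabp10a and tfa and the fibrinogen chains fgb and fgg, were called higher in male liver for 6 of 7 genes. All 5 tested muscle markers were also called higher in male liver. Leukocyte markers had a median sum of 44.6 CPM in female liver and 129 CPM in male liver, and 3 of the 6 tested were called higher in males. In female gills the sum of 15 cell division genes had r = 0.49 with asns (permutation p = 0.00255, adjusted p = 0.0476), but rho was 0.39 (permutation p = 0.0207, adjusted p = 0.186) and r was 0.31 without the 2 farthest fish. With library totals r was 0.60 (permutation test, adjusted p = 0.0042), rho 0.48 (adjusted p = 0.0866), and r 0.49 without the 2 farthest. In the 35 deep female livers that sum had r = -0.33 with TMM (permutation test, adjusted p = 0.228). With library totals r was -0.49 (adjusted p = 0.0385) and rho -0.35 (adjusted p = 0.301). Library depth had no relation with asns past the threshold in any of the 6 groups. The part of cell makeup in the asns differences was not tested.

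The lists used for the genes around asns in metabolism and in the stress response hold 168 symbols besides asns, of which 114 matched a counted gene. In brain, 2 of 109 tested list genes were higher in females and 2 in males, where 4.65% and 2.58% of all 18346 tested genes were. In gills the numbers were 10 and 5 of 109, where 6.02% and 7.45% of all 17654 tested genes were called higher in females and in males. In liver 59 of 104 were higher in females and 10 in males, where 16.9% and 15.4% of all 13176 tested genes were. The median log2 difference, female minus male, over the list genes was -0.05 for brain beside -0.03 over all tested genes, 0.06 for gills beside 0.01, and 0.67 for liver beside -0.04. In fits without X and Y genes, 1 and 2 of 108 list genes in brain were higher in females and in males. Of all tested genes 1.01% and 0.541% were. In gills the counts were then 7 and 2 of 108, where 2.58% and 4.27% of all tested genes were called. In liver they were 59 and 9 of 102, where 15.9% and 13.8% were. With library totals in place of TMM, liver gave 37 list genes higher in females and 22 in males. Over all genes the calls were 874 and 5414. Of the list calls 62.7% in place of 85.5% were female, and of the calls over all genes 13.9% in place of 52.4%. The share of list genes called higher in females was 35.6% beside 6.63% of all tested genes, where TMM gave 56.7% beside 16.9%. Library totals called 41.1% of all tested genes higher in males, at a median log2 difference of -0.48. These shares and this median are the background of the library-total values below. Vitellogenin, liver markers and leukocyte markers differed between the same livers, and their part in these counts was not tested.

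Of the 17 tested genes of asparagine and aspartate metabolism, the immediate neighbours of asns, 4 were higher in female and 4 in male liver, with a median log2 difference of -0.09, against 2 and 9 and a median of -0.66 with library totals. The argininosuccinate synthetase ass1, which joins aspartate to citrulline, was higher in females by 3.00 (SE 0.40, adjusted p = 3.1e-09; 18.3 ± 25.7 CPM, SD, n = 38, against 5.05 ± 9.50 CPM, SD, n = 39), and the alanine aminotransferase gpt2 by 1.45. Genes that were higher in males included the cytosolic aspartate aminotransferase gene got1 (log2 difference -1.10), the omega-amidase gene nit2 (-0.88), and aspa, which releases aspartate from N-acetylaspartate (-0.86). The gene nars1 encodes the synthetase that loads asparagine onto its tRNA; it averaged 108 ± 64.1 CPM in females and 115 ± 69.1 CPM in males, and its TMM-scaled difference of 0.55 (adjusted p = 0.0329) was -0.03 with library totals. The asparaginase gene aspg differed by -0.28 (adjusted p = 0.322). A second asparagine synthetase domain gene, asnsd1, was listed at 0 counts in every library.

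Among the regulators of the integrated stress response 10 of 19 tested genes were higher in female liver and 2 in male liver, against 3 and 4 with library totals. The transcription factor genes atf4a and atf4b were higher in females by 1.62 (SE 0.24, adjusted p = 4.7e-08) and 1.34 (SE 0.20, adjusted p = 3.6e-08): atf4a averaged 83.7 ± 52.7 CPM in females and 40.2 ± 29.4 CPM in males, and atf4b 93.7 ± 33.6 and 58.8 ± 29.3 CPM. The gene chac1, which encodes a glutathione-degrading enzyme and is an ATF4 target in mammals, was higher by 2.37 (SE 0.32, adjusted p = 4.3e-09). The stress response gene nupr1b was also called higher in females, by 0.87. Some other genes of the list did not pass the test. For ddit3, which encodes the CHOP transcription factor, the difference was 0.76 with an adjusted p of 0.0523, for atf3 it was -0.45 with 0.227, and for the leucine sensor gene sesn2 -0.03 with 0.921. The transcription factor gene cebpb was higher in males by a log2 difference of -0.85.

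Serine and one-carbon genes had 9 of 14 tested members higher in female liver and 1 in male liver, against 6 and 2 with library totals. All 3 enzymes of serine synthesis were among the 9: phgdh at 3.61 (SE 0.58, adjusted p = 4.6e-07), psat1 at 3.57 and psph at 2.49. So were the mitochondrial folate enzyme mthfd2 at 2.54, the proline enzyme gene pycr1b at 2.28 and the folate dehydrogenase gene aldh1l2 at 2.13. For phgdh the level was 65.7 ± 69.6 CPM in females and 9.62 ± 26.1 CPM in males. The mitochondrial serine hydroxymethyltransferase gene shmt2 had 158 ± 67.4 and 168 ± 69.6 CPM, a TMM-scaled difference of 0.56 (adjusted p = 0.0375) and a difference of -0.09 with library totals.

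Amino acid transporters had 9 of 14 tested members higher in female and 2 in male liver, with a median log2 difference of 0.82, against 5 and 2 and a median of 0.32 with library totals. The neutral amino acid carrier genes slc43a1a, at 3.29 (SE 0.38, adjusted p = 1.3e-11; 142 ± 121 against 22.3 ± 29.5 CPM), and slc1a4, at 2.61, had the largest differences, followed by slc1a5 at 1.74 and slc3a2a, which encodes the heavy chain of several exchangers, at 1.37.

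The cytosolic tRNA synthetases had the largest share of calls among the 6 lists in liver. Of 17 tested genes 16 were higher in females, with a median log2 difference of 0.98, and with library totals 11 of 17. The serine, alanine, tyrosine and glycine enzymes led, with sars1 at 2.19, aars1 at 1.85, yars1 at 1.78 and gars1 at 1.65. In gills 4 of the 17, aars1, gars1, kars1 and tars1, were higher in females by 0.22 to 0.27, against 2 with library totals; asns was lower in females there. In brain their median log2 difference was -0.03.

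Genes of the unfolded protein response of the endoplasmic reticulum had 12 of 24 tested members higher in female liver and 1 in male liver, with a median log2 difference of 0.58, against 10 and 5 and a median of 0.07 with library totals. Those higher in females included the disulfide isomerase pdia4 at 2.14 (785 ± 407 against 268 ± 363 CPM), creld2 at 2.04 and the transcription factor xbp1 at 2.00 (854 ± 453 against 331 ± 376 CPM). The 1 member called higher in males with TMM, hsp90b1, had 0 counts in all female libraries of all 3 tissues and 60230 counts over the male livers, and no fold is given. Male brains held 17184 and male gills 24009 counts of it, and it is among the male calls of each organ. Whether its 0 counts mean that females lack the transcript was not tested.

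In gills, where asns had been picked as higher in males, at most 2 genes of any list were called in that direction. The lists held 14 to 23 tested genes there. Their shares called higher in males ran from 0% to 8.70%, beside 7.45% of all 17654 tested genes. The list genes called higher in males besides hsp90b1 were atf3 (-0.58), a stress-induced transcription factor, vldlr (-0.33), a lipoprotein receptor, bcat1 (-0.84), a branched-chain aminotransferase, and the glycine transporter slc6a9 (-0.31). Higher in females were ppp1r15b (1.36), the phosphatase subunit that reverses eIF2 phosphorylation, dnajb9a (0.93), ddit4 (0.81), phgdh (0.48), ass1 (0.42) and nupr1b (0.36), along with the 4 synthetases. The genes atf4a, atf4b and chac1 differed by 0.13, 0.17 and 0.03 with adjusted p-values of 0.511, 0.203 and 0.943. Without the fish that went against their label the male calls of atf3 (adjusted p = 0.061) and vldlr were lost. Both were also lost with the replicate block, which joins fish that share only a replicate number. Leaving out X and Y genes lost both too, and slc6a9 as well (adjusted p = 0.0568). The call of vldlr was lost without the libraries that stood apart. The male call of bcat1 held in all 8 alternatives. Of the female calls, those for ass1, ddit4, aars1, gars1 and kars1 were lost under at least 1 other scaling.

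In brain the 4 called list genes were ppp1r15b (1.27) and dnajb9a (0.84) in females, and bcat2 (-0.45) and hsp90b1 in males. In the assembly used for names, dnajb9a lies on the X chromosome, of which females carry a pair.

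**Figure D4:**
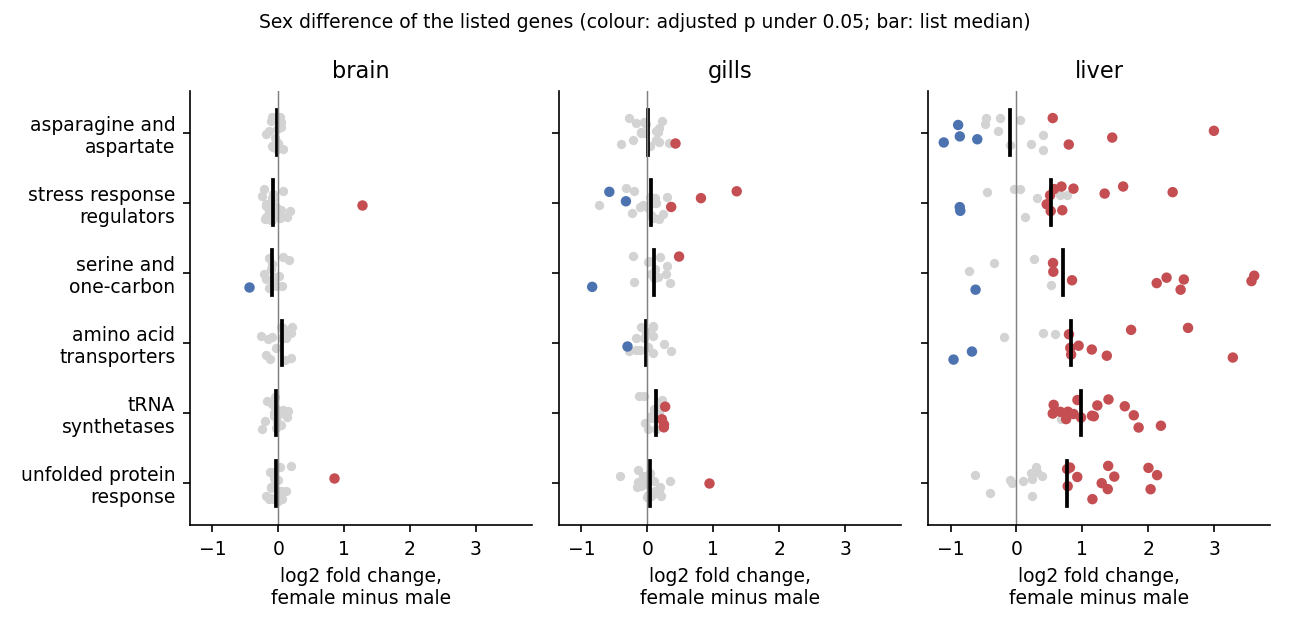
log2 fold change, female minus male, of the tested genes of 6 lists in brain, gills and liver; each point is 1 gene, coloured red (higher in females) or blue (higher in males) where the adjusted p is under 0.05 and grey otherwise, and the bar is the list median. The asns gene and hsp90b1, which had no female counts, are left out; in liver 59 of 104 list genes were called higher in females, against 10 of 109 in gills and 2 of 109 in brain.

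The difference between organs was tested directly. A fit of sex by organ over all libraries, brain included, compared the sex difference of liver with that of gills. There 54 of 111 list genes were more female in liver than in gills, where 9.11% of 19925 tested genes were. Another 9 were more male in liver, where 15.8% of all tested genes were. The pattern for which asns was picked, called higher in female liver and in male gills, was held by 70 of the 12789 genes tested in both organs, asns included, while 40 had the opposite pattern and 683 were called in the same direction in both. Among 103 list genes vldlr alone held the pattern, with log2 differences of 0.46 in liver and -0.33 in gills and a difference between organs of 0.68 (SE 0.16, edgeR quasi-likelihood test, adjusted p = 0.00067). The opposite calls that single out vldlr come from the same counts as this test, so the test adds no separate support. Without the libraries that stood apart vldlr lost its call in both organs, with adjusted p-values of 0.053 in liver and 0.051 in gills, and its gill call was also lost in the 3 settings named above for gills.

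The genes that followed asns from fish to fish were listed for each organ. Likeness was measured within each sex over deep libraries by Spearman's rho of log2 CPM with asns, the nearest genes were ranked by the lower of the 2 sexes' values and the most opposed by the higher, so that both sexes had to share the direction, and no p is attached because the genes were picked by rho. All rho values share the libraries' scaling and depth, and the counts below are given with TMM only. In liver 43 of 13175 genes had rho over 0.5 in both sexes, against 3 of 18345 in brain and 1 of 17653 in gills. Of those 43 liver genes, 41 were also called higher in females, where 16.9% of all tested genes were. Of 17 genes with rho under -0.5 in both sexes, 12 were called higher in males, where 15.4% of all tested genes were.

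The 8 genes nearest to asns in liver (35 female and 32 male livers) were LOC120832216, tars1, nif3l1, pelo, si:dkeyp-69e1.8, aars1, vars1 and fam114a2, with the lower rho from 0.61 to 0.65. Of these, tars1 (0.76 in females and 0.64 in males), aars1 (0.80 and 0.62) and vars1 (0.65 and 0.62) are tRNA synthetases for threonine, alanine and valine, and pelo (0.71 and 0.63) encodes a factor that rescues stalled ribosomes. At the opposite end were LOC120811635 (-0.68 and -0.64), LOC120830746 (-0.64 and -0.76) and the dystrophin gene dmd (-0.62 and -0.58). With library totals 6 of the 8 nearest genes stayed among the 50 nearest, and the lowest rho among the 8 was 0.36. Of the 3 most opposed, 2 stayed among the 50 most opposed. The tRNA synthetase list as a whole had a median rho of 0.65 in females and 0.45 in males, beside -0.07 and -0.02 over all genes, and 12 of its 17 genes exceeded 0.3 in both sexes, as did 693 of 13175 genes.

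Several stress response and biosynthesis genes had high rho with asns in female liver. The genes named here are single members of their lists. In females and males the median rho was 0.34 and 0.20 for stress response regulators and 0.52 and 0.22 for serine and one-carbon genes. For amino acid transporters it was 0.23 and -0.01, and for unfolded protein response genes 0.41 and 0.21. In that list order 4 of 19, 4 of 14, 3 of 14 and 5 of 24 genes exceeded 0.3 in both sexes. Over all genes 693 of 13175 did. For pycr1b rho was 0.84 in females and 0.58 in males, for chac1 0.80 and 0.50, for atf4b 0.73 and 0.43, and for mthfd2 0.84 and 0.30. For phgdh it was 0.77 and -0.13, for psat1 0.70 and -0.22, for slc1a4 0.78 and 0.07, and for xbp1 0.69 and 0.24. The aspartate aminotransferase gene got1 ran opposite, at -0.76 in females and -0.22 in males. The difference between the sexes in these values was not tested.

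In brain (38 females and 39 males) the 8 nearest genes were mapkapk2a, trarg1a, pitrm1, LOC120810744, hapln4, nme9, caprin1a and sqor, with the lower rho from 0.47 to 0.55. They include the stress-activated kinase gene mapkapk2a (0.55 and 0.56), the mitochondrial peptidase gene pitrm1 (0.53 and 0.52), hapln4, whose product links the matrix around neurons (0.50 and 0.64), and the RNA-binding protein gene caprin1a (0.48 and 0.66). The most opposed genes were ttyh3b (-0.59 and -0.59), fezf2, a forebrain transcription factor (-0.55 and -0.57), and dclk1a, a microtubule-associated kinase (-0.53 and -0.73). Both atf4 genes tracked asns in male brain, atf4b at 0.80 and atf4a at 0.72, and in female brain they stood at 0.43 and 0.09. The stress response list as a whole had medians of 0.04 in female and 0.09 in male brain. Of its 23 genes, 1 exceeded 0.3 in both sexes, as did 270 of 18345 genes. Values of this size in male brain were not particular to the atf4 genes: trarg1a stood at 0.74. The tRNA synthetase list had medians of 0.04 and 0.13 in brain.

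In gills (36 females and 36 males) the nearest genes were erg28, prim1, ppiaa, psmb5, LOC120817036, lsm3, nsfl1c and LOC120829934, with the lower rho from 0.44 to 0.53. Their products include a sterol synthesis scaffold (erg28, 0.53 and 0.54), the DNA primase (prim1, 0.64 and 0.47) and a proteasome subunit (psmb5, 0.46 and 0.55). The most opposed were sh3bp2 (-0.47 and -0.55), ndst3 (-0.43 and -0.54) and vstm4b (-0.43 and -0.36). In gills atf4a stood at -0.11 and -0.07, atf4b at 0.22 and 0.11, and chac1 at 0.06 and 0.23. No tRNA synthetase exceeded 0.3 in both sexes, and neither did any gene of the other 5 lists. Only 70 of all 17653 genes did, so lists of this size would be expected to hold few or none.

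Over all 6 groups of tissue and sex, the genes with the highest minimum rho among 12690 were klhdc4 (0.31 to 0.61), rpn1, a subunit of the enzyme that glycosylates new proteins in the endoplasmic reticulum (0.26 to 0.56), LOC120829934 (0.24 to 0.44), eif3c, a subunit of a translation initiation factor (0.21 to 0.65), and LOC120809249 (0.21 to 0.67).

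**Figure D5:**
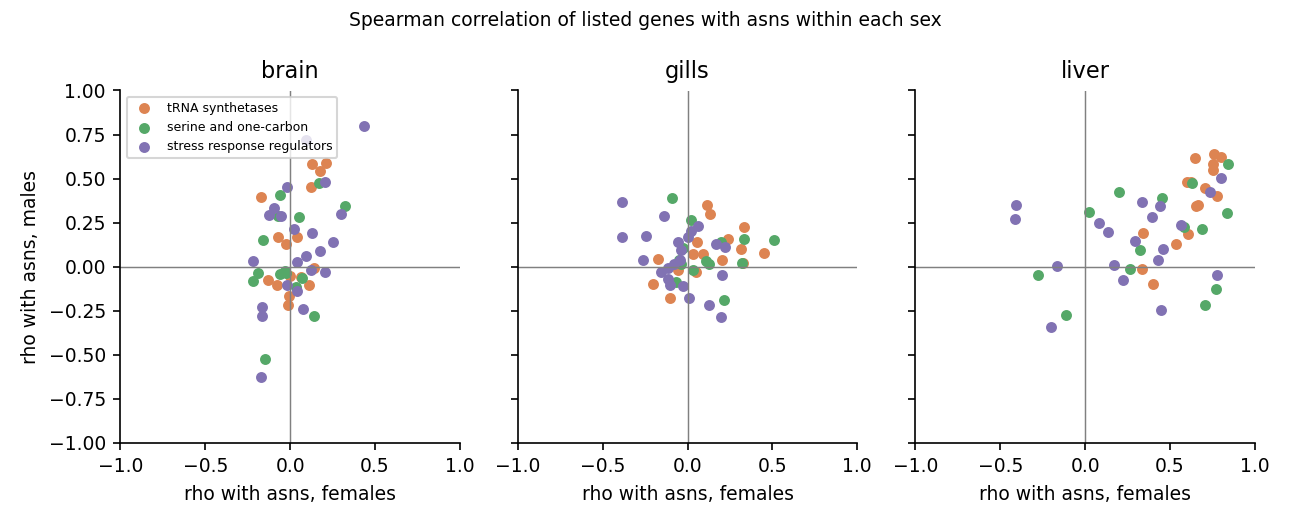
Spearman's rho with asns in females (horizontal) and males (vertical) for genes of 3 lists in brain, gills and liver, over libraries with at least 1000000 counts; each point is 1 gene. In liver the tRNA synthetases sit toward the upper right, with medians of 0.65 in females and 0.45 in males; in gills the points gather around 0, and in brain atf4b stands out at 0.43 in females and 0.80 in males.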

How the data were processed

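The authors deposited 1 table of raw read counts per gene for each tissue; the submitters' processing notes name fastp, STAR and HTSeq, without roles or versions, and the genome build, annotation and strand setting are not given in the sources used here. Summary lines that name no gene, a median of 17.3%, 14.8% and 11.5% of counts in brain, gills and liver, were left out. Gene symbols were matched to a RefSeq gene table (assembly fGasAcu3.hap1.1), used for names, chromosomes and neighbours only: 21061 of 25994 genes matched. There no annotated gene overlaps asns on chromosome 10. No sequence was used here.

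Sex was tested in each tissue with edgeR 4.0.16 (R 4.3.3): TMM scaling, its default filter on low counts by sex, robust quasi-likelihood F test, sex as the only term, Benjamini-Hochberg adjustment over all tested genes and a threshold of 0.05. SEs are the log2 difference divided by the square root of F. The sex-by-organ fit used all libraries of brain, gills and liver with a mean per tissue and sex. Its contrast compared liver with gills, and it had no term for the fish that tissues share. Correlations and within-fish differences used log2 CPM with TMM and a prior count of 2; correlations used libraries with at least 1000000 counts and two-sided tests with 100000 permutations. Deep livers went against their label at vtg3 under 100 CPM in females or over 1000 CPM in males. The fits were checked on simulated counts with balanced changes in both directions, which do not hold the shift between the sexes seen in liver with library totals. Replicates are separate fish, numbered by the labels, and the same numbers in females and males do not name the same fish.

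The gene, the gene lists and the tests were chosen with earlier results of these data known. A planned test of within-fish tissue differences was dropped because liver and gill levels helped pick asns. Genes named from a list are up to 4 called genes with the largest difference per tissue, plus known ATF4 targets and asparagine genes; others were added after their values were seen. Following genes are the 8 highest by the lower and the 3 lowest by the higher of the sexes' rho per tissue, and the 5 highest over all. Alternatives were size factors by relative log expression (RLE), library totals, no filter, DESeq2 1.42.0, a prior count of 0.5, a replicate block, no X or Y genes, and leaving out libraries that stood apart; leaving out all libraries of the 5 fish that went against their label was added after seeing the data.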

Additional observations from a re-analysis of the deposited data

Results flagged for a closer look

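The lipoprotein receptor gene vldlr, on the list of stress response regulators, was called higher in female liver (log2 difference 0.46) and in male gills (-0.33). The difference between the organs was 0.68 (SE 0.16, edgeR quasi-likelihood test, adjusted p = 0.00067). The gene was flagged for these opposite calls and for passing that test on the same counts, so the test adds no separate support. Without the libraries that stood apart the call was lost in both organs, with adjusted p-values of 0.053 in liver and 0.051 in gills.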

How the results depend on the processing

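The asns sex difference kept its direction in brain, gills and liver under all 8 alternatives, with a range of -0.17 to -0.09 for brain, where no fit called it, -1.08 to -0.81 for gills, and 1.88 to 2.70 for liver. The count of list genes moved by more than 1.5 times in 8 cases. In liver, library totals gave 37 higher in females and 22 in males, where over all genes they gave 874 and 5414. In gills, 6 were higher in females with RLE size factors and with library totals, and those higher in males numbered 3 with the replicate block, 2 without X and Y genes and 3 without the fish that went against their label. In brain, 1 was higher in females without X and Y genes. Within male fish, library totals turned liver minus brain to -1.12 and liver minus gills to -0.95. Gills minus brain, 0.00 in males, was -0.012 without libraries that stood apart. It was -0.013 as a plain difference between the means of all male gill and brain libraries, which ignores which fish a sample came from. For males, rho of liver with brain turned from 0.016 to -0.029 and of liver with gills from 0.11 to -0.053 without libraries that stood apart (adjusted p = 0.879 for both). For females, rho of gills with brain was 0.39 with library totals (adjusted p = 0.133). With all 35 deep female livers, rho of asns with vtg3 was 0.73 (adjusted p = 0.00112), and with library totals 0.56 (adjusted p = 0.0392). Among the 3 gill genes most opposed to asns, 1 stayed among the 50 lowest with library totals. Of the 8 liver genes nearest to asns, 6 stayed among the 50 highest with that scale. Single liver genes that reversed were nars1 (-0.031) and shmt2 (-0.092) with library totals, and glula, uncalled at 0.22, at -0.52 with library totals, -0.016 with RLE size factors and -0.021 with DESeq2. Replicate numbers did not pair the fish: 12 of 38, 36 and 29 numbered pairs in brain, gills and liver had correlated deviations over 0.1, and 2, 1 and 0 correlated best with their own number; with the replicate block the asns difference in brain was -0.09 (adjusted p = 0.891). Shallow livers limit what their zero counts show.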
